A study of Mus musculus with 3 samples.

Results

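Open chromatin was examined at 7 genes of the DNA methylation machinery, Dnmt1, Dnmt3a, Dnmt3b, Tet1, Tet2, Tet3 and Uhrf1, in 3 fractions of mouse CD4+ T cells. The assay was ATAC-seq, where a transposase cuts accessible DNA and tags it for sequencing. Peaks of the 3 libraries with 1 bp or more in common were joined into regions. A region was taken as belonging to a gene when that gene's RefSeq span was the nearest protein-coding span within 100 kb. This gave 55 regions, of 57457 in all and of 54435 that could be assigned to a gene. Tet2 and Tet3 had 15 regions each, Dnmt3a had 13, Tet1 had 6, Dnmt1 had 3, Dnmt3b had 2 and Uhrf1 had 1. The median was 2 regions per gene over the 15056 genes with any, and 434 genes had at least 15.

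The first fraction was divided CBir1 cells, which had diluted the dye CellTrace Violet. The second was undivided CBir1 cells, which had kept it. The last was polyclonal cells, the CD4+ T cells of the recipients themselves. CBir1 cells carry a transgenic receptor for a bacterial flagellin of the gut. They were taken as naive cells from transgenic spleens, dyed, and given to 4 wild-type C57BL/6J mice, so that the polyclonal cells differed from the others in receptor and in not having been transferred. For 7 days all recipients had 2% dextran sulfate sodium (DSS), a compound that injures the colon lining, in their water. They all received 1 mg/kg FTY720, which holds lymphocytes in lymph nodes, on days 7, 10 and 13, and the colon-draining mesenteric nodes were collected at day 14, counted from the first day of DSS. No untreated library was used here. Cells of 2 mice were pooled in duplicate per the labels, but a fraction had 1 peak list here. The sources used here do not give how duplicates were combined in it. Differences between fractions therefore lack a replicate check, and no p-value was computed.

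The lists held 47963 peaks for divided, 41876 for undivided and 44426 for polyclonal cells, with a median summit pileup of 31, 30 and 27 fragments in that order. Depth differed, since the lowest local background was 1.21 fragments for divided, 0.808 for undivided and 0.865 for polyclonal cells. All 14 CD4 T cell markers, among them Cd3e, Cd4 and Lck, had a called region at a gene end in each library, with summed top pileups of 2024 for divided, 1696 for undivided and 1774 for polyclonal cells. Of 10 B cell markers, 3 were open in divided cells, 1 in undivided cells and 2 in polyclonal cells, with summed pileups of 119, 95 and 105 in that order. Cd79b, Ms4a1 and Pax5 were open in none, and Cd79a gave most of the sum, with 97 for divided, 95 for undivided and 94 for polyclonal cells. Ebf1 had 12 fragments in divided and 11 in polyclonal cells with no call in undivided cells, and Blk had 10 in divided cells alone, and the part of B cells in the results was not tested. Of 4 CD8 T cell markers 2 were open in each library, with summed pileups of 70 for divided, 88 for undivided and 94 for polyclonal cells. Cd8b1 had 33, 51 and 63 fragments in that order and Eomes had 37, 37 and 31, while Cd8a and Klrk1 were open in none, and the part of CD8 T cells in the results was not tested. Of 7 myeloid markers 3 were open in divided cells, 4 in undivided cells and 4 in polyclonal cells, of 4 epithelial markers 1, 2 and 2 in that order, and of 3 NK markers 0 in each.

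As background, Dnmt1 copies methylation onto the new DNA strand after replication, and Uhrf1 recognises half-methylated DNA and brings Dnmt1 to it. Dnmt3a and Dnmt3b place methylation on sites that had none. The Tet enzymes oxidise 5-methylcytosine, which leads to its removal either through base repair or by dilution at replication. In T cells Dnmt3a is known to limit the re-expression of cytokine genes of other helper lineages, Tet2 and Tet3 to keep the Foxp3 enhancer unmethylated in regulatory T cells, and loss of TET2 to be frequent in human T cell lymphoma of follicular helper type.

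Each of the 7 genes had a transcription start in open chromatin in every fraction. There were 8 regions at starts, since Dnmt3a has an upstream and an internal start far apart, and all 8 were called in all 3 libraries. Fewer cells with an open region and less opening per cell cannot be told apart in such libraries, here or in any value that follows. Of 12 annotated promoters, taken as 250 bases before to 50 after a start, 10 overlapped a peak in all 3 libraries (83.3%), against 48.8% of 21263 promoters of protein-coding genes. The exceptions were the most upstream start of Dnmt1, which overlapped a peak in no library, and the upstream start of Uhrf1, whose window met the edge of the region in divided cells alone. Among all promoters 46.8% overlapped a peak in no library, so most of those open in any library were open in all 3. The windows of 2 neighbouring Dnmt3a starts overlap each other. Promoters open in all 3 libraries held a median of 22 CG dinucleotides, and those open in none 4. Of all promoters with 20 or more CG, 83.2% were open in all 3 libraries, and of those with under 10 CG 11.7%.

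Promoter sequences from RefSeq (GRCm38.p6, the assembly of mm10) are shown for 4 starts. They were picked because CG dinucleotides, which these enzymes act on, differ widely at Dnmt1 between a start with and a start without a called region. Capitals mark CG. The most upstream Dnmt1 start (chr9:20959839-20960138, minus strand) held 2 CG and overlapped no peak, and the most downstream of the 3 (chr9:20952574-20952873, minus strand) held 33 and lay in a region called in all 3 libraries. The Tet2 start (chr3:133544341-133544640, minus strand) held 57, the most among the 12, and the internal Dnmt3a start (chr12:3891494-3891793, plus strand) held 18. The middle Dnmt1 start, not shown, held 12 CG and lay in the same called region as the downstream one. The upstream Uhrf1 start, met by the divided peak alone, also held 12.

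Dnmt1 upstream start: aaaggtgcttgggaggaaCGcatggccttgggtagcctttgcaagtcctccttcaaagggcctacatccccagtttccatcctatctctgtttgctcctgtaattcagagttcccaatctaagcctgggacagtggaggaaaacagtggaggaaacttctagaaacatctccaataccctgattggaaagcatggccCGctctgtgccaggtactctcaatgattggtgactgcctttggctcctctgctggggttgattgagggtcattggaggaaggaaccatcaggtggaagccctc

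Dnmt1 downstream start: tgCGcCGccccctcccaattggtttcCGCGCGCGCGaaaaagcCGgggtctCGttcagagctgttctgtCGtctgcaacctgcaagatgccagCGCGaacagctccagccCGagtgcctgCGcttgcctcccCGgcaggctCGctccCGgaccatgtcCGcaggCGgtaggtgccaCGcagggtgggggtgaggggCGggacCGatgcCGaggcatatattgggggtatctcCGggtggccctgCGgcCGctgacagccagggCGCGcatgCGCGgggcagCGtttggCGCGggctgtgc

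Tet2 start: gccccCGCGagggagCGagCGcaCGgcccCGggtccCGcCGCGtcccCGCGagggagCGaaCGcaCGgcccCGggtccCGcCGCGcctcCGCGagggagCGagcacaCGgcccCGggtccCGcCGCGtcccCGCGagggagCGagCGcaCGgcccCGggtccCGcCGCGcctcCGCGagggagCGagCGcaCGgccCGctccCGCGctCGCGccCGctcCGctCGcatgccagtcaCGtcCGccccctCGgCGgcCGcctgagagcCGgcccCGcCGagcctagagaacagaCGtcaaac

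Dnmt3a internal start: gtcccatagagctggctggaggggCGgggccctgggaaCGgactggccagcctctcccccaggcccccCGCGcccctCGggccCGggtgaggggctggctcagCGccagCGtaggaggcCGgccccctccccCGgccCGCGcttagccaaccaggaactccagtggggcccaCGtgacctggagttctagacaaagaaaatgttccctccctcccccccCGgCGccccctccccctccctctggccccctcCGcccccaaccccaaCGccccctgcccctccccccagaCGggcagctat

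In the Tet2 window the same 10-base word occurred at 5 positions, as the tandem copies in its first part show, which 4.03% of all promoters matched or exceeded. The word GGGCGG, bound by Sp and Klf factors, was found on either strand in 10 of the 12 windows and in 46.2% of all promoters. CCAAT, bound by NF-Y, was in 5 of the 12 and in 38.2% of all. The E2F word TTTGGCGC was in 1, the downstream Dnmt1 start, and in 0.635% of all, and the other E2F word, TTTCCCGC, was in none of the 12 and in 1.41% of all. CCGGAA (Ets) was in 1 of the 12 and in 18.7% of all promoters. TGCGCA (Nrf1) was in 1 and in 9.74% of all, and TGTGGT (Runx) was in 1, the upstream Uhrf1 start, and in 15.0% of all. A match describes letters in a window and shows no binding.

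At the starts the summit pileup, the number of fragments stacked at the highest point of the peak, was similar across fractions. For Dnmt1 it was 130 fragments in divided cells, 129 in undivided cells and 145 in polyclonal cells, and for Uhrf1 127 fragments in divided cells, 99 in undivided cells and 119 in polyclonal cells. For Dnmt3a it was 162 fragments in divided cells, 125 in undivided cells and 110 in polyclonal cells at the upstream start, and 75 fragments in divided cells, 55 in undivided cells and 82 in polyclonal cells at the internal one. The Dnmt3b start had 59 fragments in divided cells, 65 in undivided cells and 63 in polyclonal cells. Tet1 had the lowest of the 8, with 40 fragments in divided cells, 40 in undivided cells and 44 in polyclonal cells, where 13.9%, 18.2% and 19.9% of open promoters of the same 3 libraries were lower. Its median summit lay 742 bp downstream of the start and its summits were up to 635 bp apart between libraries. The Tet1 pileups are therefore not of the same position. The Tet2 start had 121 fragments in divided cells, 96 in undivided cells and 96 in polyclonal cells, and the Tet3 start had 137 fragments in divided cells, 107 in undivided cells and 109 in polyclonal cells. Median pileup over all open promoters was 101 for divided, 83 for undivided and 88 for polyclonal cells, so Dnmt1, the upstream Dnmt3a start, Tet2, Tet3 and Uhrf1 lay above it in each library and Dnmt3b, Tet1 and the internal Dnmt3a start below it.

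**Figure D1:**
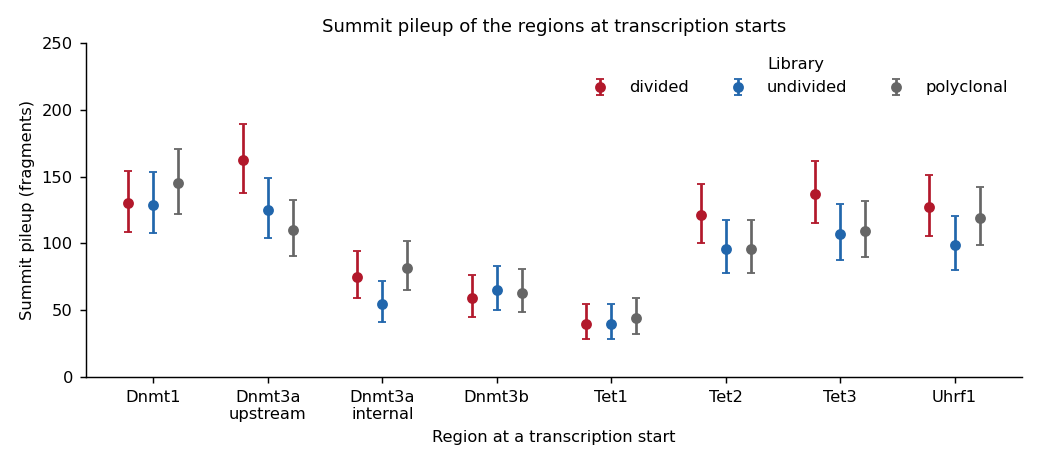
Summit pileup (fragments) of the 8 regions at transcription starts in the divided, undivided and polyclonal library, 1 library each; bars are exact Poisson 95% intervals and cover counting error only. The 3 points of a start lie close together next to the differences between genes, from 40 fragments at Tet1 to 162 at the upstream Dnmt3a start in divided cells.

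For ratios between fractions, the ratio of 2 pileups was divided by the median ratio over regions called in all 3 libraries (1.21 for divided over undivided, 1.19 for divided over polyclonal and 0.989 for undivided over polyclonal), with an exact binomial interval that covers counting error only. Scaled in this way, divided over undivided ratios at the 8 starts ran from 0.753 (95% interval 0.520 to 1.09) at Dnmt3b to 1.13 (95% interval 0.788 to 1.63) at the internal Dnmt3a start. The interval left out 1 in 2 cases: divided over polyclonal at Dnmt1, with 0.754 (95% interval 0.590 to 0.962), and undivided over polyclonal at the internal Dnmt3a start, with 0.679 (95% interval 0.473 to 0.966). Scaling by the lowest background instead, where the ratios of the 3 libraries are 1.5, 1.40 and 0.933, shifts every divided over undivided ratio by -0.31 and every divided over polyclonal ratio by -0.23 on the log2 scale, so that ratios near 1, such as 1.05 at the Tet2 start, turn below 1 (0.842). Of the 8 intervals at the starts, those that left out 1 then numbered 2 for divided over undivided cells, against 0 before, 4 for divided over polyclonal cells, against 1, and 0 for undivided over polyclonal cells, against 1. All 6 of these ratios were below 1.

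Beside the 8 regions at starts there were 47 away from the annotated starts used here, of which 24 were called in all 3 libraries. Of the 55 regions, 32 were called in all 3 libraries (58.2%, exact 95% interval 44.1 to 71.3), against 57.6% of all regions assigned to a gene, so the members as a group were close to the background. With the start regions included, every region of Tet1 (6 of 6), Dnmt3b (2 of 2) and Uhrf1 (1 of 1) was shared by the 3 libraries. So were 2 of 3 at Dnmt1, 10 of 15 at Tet3, 7 of 13 at Dnmt3a and 4 of 15 at Tet2. Of the rest, 13 were called in divided cells alone, 4 in divided and polyclonal cells, 1 in divided and undivided cells, 1 in undivided and polyclonal cells, 2 in undivided cells alone and 2 in polyclonal cells alone. Shared regions were wider (median 751 bp, against 265 bp for regions called in 1 or 2 libraries) and had higher top pileups (median 64.5, against 14 fragments), with widths of 788 and 286 bp over all assigned regions. Width was taken over the joined peaks and top pileup as the highest of the libraries with a call. Both differences are thus partly set by how regions were built and called. Inside the gene spans but away from a start, 21 of 35 regions were shared by the 3 libraries, and of the 8 upstream of a gene 1 was. Those upstream were at Tet2 and Dnmt1 only, nearly all at Tet2. No share by place was computed over all regions, so these counts have no background value. The gene table used gives spans without exons, so exons and introns were not told apart.

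Between divided and undivided cells, 17 of the 53 regions called in either were called in divided cells and absent from the undivided list (32.1%), against 22.9% of all regions, and 3 were called in undivided and not divided cells (5.66%), against 10.7%. Between divided and polyclonal cells, 14 of 53 were in the divided and not the polyclonal list (26.4%), against 19.3% of all regions, and 3 the other way (5.66%), against 12%. Between undivided and polyclonal cells, 3 of 42 were called in undivided and not polyclonal cells (7.14%), against 11.6%, and 6 the other way (14.3%), against 16.8%. Tet2 held 9 of the 17 regions found in divided and not undivided cells. Without Tet2 the counts were 8 against 3 for divided and undivided cells, beside 28 regions called in both. They were 8 against 2, beside 28, for divided and polyclonal cells and 2 against 1, beside 29, for undivided and polyclonal cells. Over all regions they were 11547 against 5403 beside 33476, 9862 against 6117 beside 35161 and 5441 against 7840 beside 33438, in that order. The share in divided and not undivided cells was thus no higher without Tet2 than over all regions. That in divided and not polyclonal cells was close to the share over all regions.

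**Figure D2:**
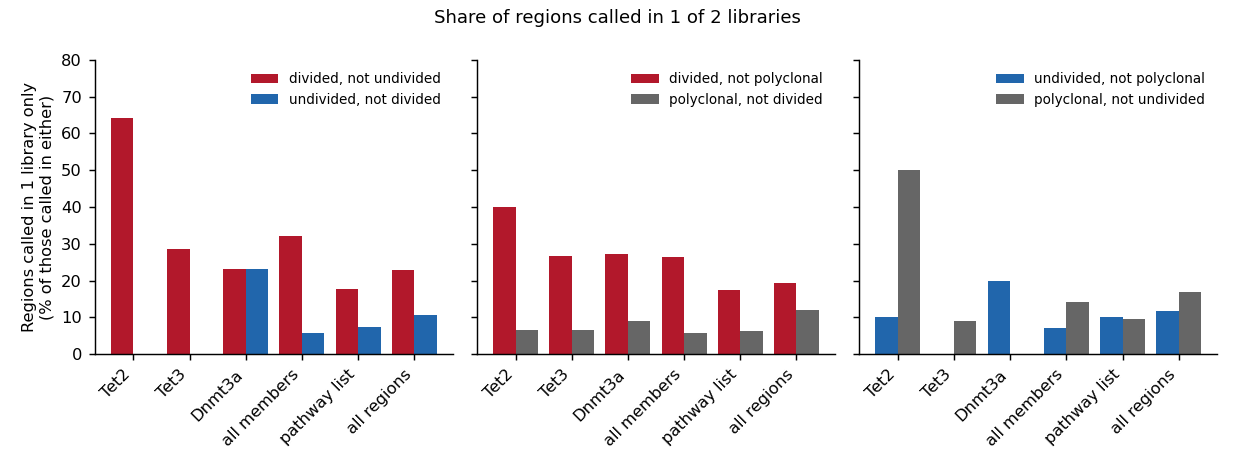
Share of regions called in 1 of 2 libraries (% of the regions called in either), for Tet2, Tet3, Dnmt3a, all 7 members, the wider pathway list and all regions, in the 3 comparisons. At Tet2 64.3% of regions were in the divided and not the undivided list and 0 the other way, against 22.9% and 10.7% of all regions. At Tet2 50% were called in polyclonal and not undivided cells, against 16.8%.

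Most member regions that were called in both libraries of a comparison differed by less than 2-fold in height. At least 2-fold higher scaled pileup was found in divided over undivided cells at 1 of 33 regions, against 4.19% of all regions called in both, and at least 2-fold lower at 0, against 3.24%. In divided over polyclonal cells 5 of 36 were at least 2-fold higher, against 3.45%, and 0 lower, against 2.1%. In undivided over polyclonal cells 2 of 33 were higher, against 1.27%, and 0 lower, against 1.65%. Tet2 gave the 1 region in divided over undivided cells and 4 of the 5 in divided over polyclonal cells, where Dnmt3b gave the other. Dnmt3b and Tet3 gave 1 each in undivided over polyclonal cells. The median ratio over all members was 1.04 for divided over undivided, 1.07 for divided over polyclonal and 1.01 for undivided over polyclonal cells.

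**Figure D3:**
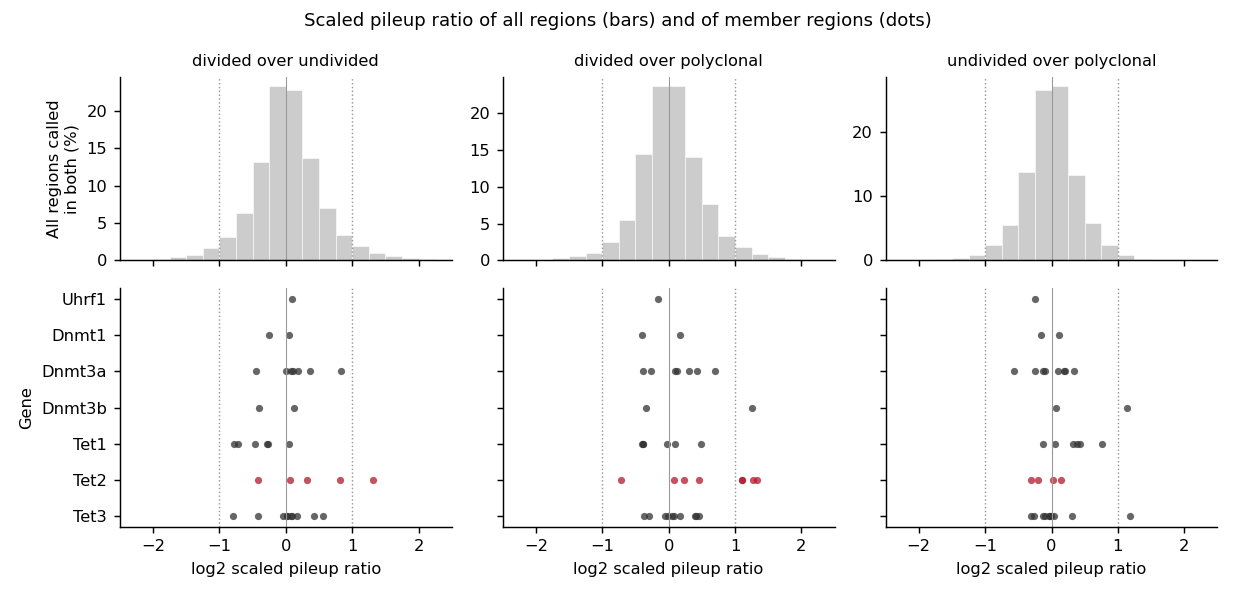
Upper row, distribution of the log2 scaled pileup ratio over all regions called in both libraries (% of regions per bin); lower row, the ratio of each region of the 7 genes (dots, Tet2 in red), for the 3 comparisons; dotted lines mark 2-fold. Most dots lie between the dotted lines, Tet1 dots lie mostly left of 0 for divided over undivided cells, and 4 Tet2 dots lie beyond 2-fold for divided over polyclonal cells.

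At Dnmt1, the maintenance enzyme, the start region (chr9:20952192-20953382) had its summit at the same base in all 3 libraries, and a region inside the gene (chr9:20915998-20916659) had 20 fragments in divided cells, 16 in undivided cells and 15 in polyclonal cells. Another region, chr9:20961439-20961796, lay 1551 bp beyond the span and 1830 bp upstream of the upstream start whose sequence is shown above. It was called in divided cells alone, with 21 fragments and a −log10 q of 17.2. S1pr2, which encodes a sphingosine 1-phosphate receptor, lay 4156 bp away on its other side, so its assignment to Dnmt1 rests on distance. At the local background of that region a peak of 5 fragments would have been called in the undivided or polyclonal library. Scaled by background, its divided pileup was 14.0 in the undivided and 15.0 in the polyclonal library. The region entered through its call in divided cells, so its height there is no test of the missing calls. At Uhrf1, the partner that recruits Dnmt1, the 1 joined region (chr17:56303246-56304634) covered both annotated starts, the upstream one only through the divided peak. Its ratios were 1.06 (95% interval 0.812 to 1.40) for divided over undivided and 0.897 (95% interval 0.693 to 1.16) for divided over polyclonal cells. Both genes are known to be expressed more in dividing cells, and neither start had a higher ratio in divided cells beyond counting error.

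At Dnmt3a, which places new methylation, the highest ratio between fractions was inside the gene and not at a start. The region chr12:3834169-3835235, 27586 bp downstream of the first start, had 159 fragments in divided cells, 74 in undivided cells and 82 in polyclonal cells, so that the divided pileup was nearly as high as that of the upstream start (162). The divided over undivided ratio was 1.78 (95% interval 1.34 to 2.38) and the divided over polyclonal ratio 1.63 (95% interval 1.24 to 2.15), and both were lower under the background scaling, at 1.44 (95% interval 1.08 to 1.92) and 1.39 (95% interval 1.06 to 1.84). Beside it, chr12:3835688-3835864 was called in divided cells alone with 48 fragments over a local background of 12.8 and a −log10 q of 11.6. The nearest undivided and polyclonal peaks ended 453 bp away, in the neighbouring region, so it lay beside a stretch that was open in the other fractions too. Further into the gene, chr12:3870672-3871759 had 90 fragments in divided cells, 102 in undivided cells and 91 in polyclonal cells, and its divided over undivided ratio was 0.732 (95% interval 0.545 to 0.981), in the opposite direction.

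Dnmt3a was also the gene with all 3 of the members' regions called in undivided and not divided cells. These were chr12:3829311-3829546, with 12 fragments in undivided and 13 in polyclonal cells, and, in undivided cells alone, chr12:3846429-3846683 with 6 and chr12:3868590-3868810 with 21 fragments. All 3 had a −log10 q under 5. The remaining regions called in divided cells alone, chr12:3861338-3861705 and chr12:3915571-3915720, had 9 and 8 fragments and were likewise under 5. Beyond the end of the gene, chr12:3925857-3926518, 11414 bp downstream of it, was called in all 3 libraries with 31 fragments in divided cells, 20 in undivided cells and 24 in polyclonal cells. Counts for divided and undivided cells at Dnmt3a were therefore 3 against 3, each 23.1% of the 13 called in either, against 22.9% and 10.7% of all regions.

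Dnmt3b, the second enzyme of this kind, had the start region and 1 region 6865 bp beyond its end, chr2:153694595-153694907, with 17 fragments in divided cells, 13 in undivided cells and 6 in polyclonal cells. The divided over polyclonal ratio of that region was 2.38 (95% interval 0.896 to 7.38) and the undivided over polyclonal ratio 2.19 (95% interval 0.777 to 7.03), past 2-fold but with intervals that include 1.

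**Figure D4:**
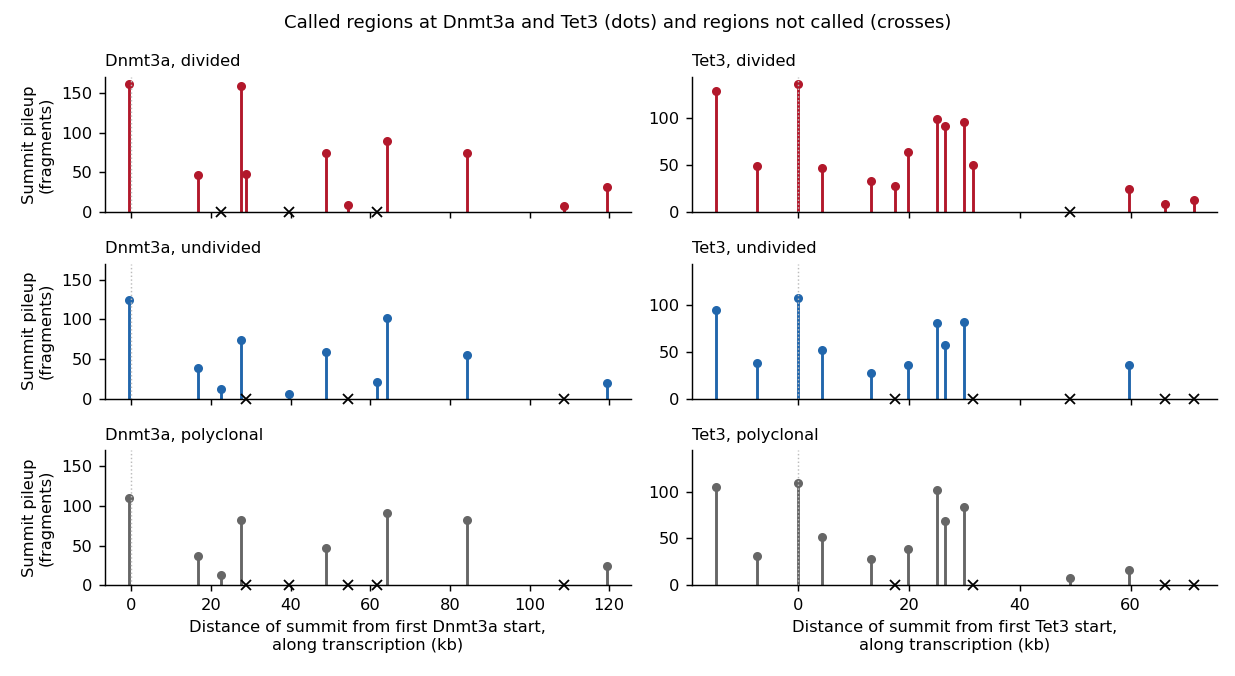
Summit pileup (fragments) of each region at Dnmt3a and Tet3 against the distance of its summit from the gene's first start used here along the direction of transcription (kb), in the divided, undivided and polyclonal library. Crosses mark regions that were not called in that library. The Tet3 span reaches upstream of that start, so negative distances there can lie inside the span. The tall stems stand in all 3 libraries, and most crosses belong to regions under 30 fragments, the exceptions being stems of 48 and 50 fragments in divided cells.

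At Tet1 all 6 regions were present in every fraction. The highest was inside the gene, chr10:62865202-62866081, with 76 fragments in divided cells, 77 in undivided cells and 60 in polyclonal cells and its summit at the same base in the 3 libraries. For divided over undivided cells 5 of the 6 ratios were below 1, with a median of 0.773 and a range from 0.580 to 1.04. The interval left out 1 in 1 of them, chr10:62851450-62852089, which had 49 fragments in divided cells, 67 in undivided cells and 54 in polyclonal cells and a ratio of 0.606 (95% interval 0.411 to 0.890). Under the background scaling the interval left out 1 in 4 of the 6, all with ratios below 1. The 6 regions come from the same 2 libraries and are not replicates of a difference between them.

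Among the 7 genes Tet2 had the smallest share of regions called in all 3 libraries, 4 of 15. The start region (chr3:133543656-133545452) had a divided over undivided ratio of 1.05 (95% interval 0.793 to 1.38), and 2 other regions whose ratios had intervals that include 1 were chr3:133543125-133543571, next to it, with 36 fragments in divided cells, 24 in undivided cells and 22 in polyclonal cells, and chr3:133614133-133614673, 69991 bp upstream, with 18 fragments in divided cells, 20 in undivided cells and 25 in polyclonal cells. Of the 14 regions called in divided or undivided cells, 9 were called in divided cells only (64.3%, against 22.9% of all regions). In undivided cells only there were 0, against 10.7%. In the genome 26 of 15056 genes had a net count at least as high as 9, a count that only a gene with at least 9 regions can reach. The 9 regions had 10 to 23 fragments in divided cells (median 15) and −log10 q values from 2.18 to 19.8. They spread over the locus: 1 lay downstream of the gene, 2 inside it and 6 upstream of the start, of which 3 lay side by side, with summits 37926 to 38917 bp before the start, and are not independent.

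The 3 of these 9 regions with the highest −log10 q, and 1 other, were also called in polyclonal cells, at lower pileup. The region chr3:133436968-133437326, 26351 bp beyond the end of the gene, had 23 fragments in divided and 8 in polyclonal cells, with no call in undivided cells and a divided over polyclonal ratio of 2.42 (95% interval 1.04 to 6.25). Upstream, chr3:133582020-133582417, with its summit 37926 bp before the start, had 23 fragments in divided and 9 in polyclonal cells, with a ratio of 2.15 (95% interval 0.958 to 5.27). The most distant, chr3:133626426-133627060, with its summit 82263 bp before the start, had 21 in divided and 7 in polyclonal cells, with a ratio of 2.52 (95% interval 1.03 to 7.02). At chr3:133563500-133564197, 19324 bp before the start, the divided and polyclonal pileups were 14 and 10, with a ratio of 1.18 (95% interval 0.486 to 2.96). All 4 had more fragments in divided than in polyclonal cells, and the interval of the ratio lay above 1 at 2 of them. Under the background scaling those 2 ratios were 2.06 (95% interval 0.889 to 5.32) and 2.15 (95% interval 0.880 to 5.98), so that neither interval left out 1. The ratio at chr3:133563500-133564197 was then 1.00 (95% interval 0.414 to 2.52) and that at chr3:133582020-133582417 1.83 (95% interval 0.816 to 4.49).

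The other 5 of the 9 were called in divided cells alone. Inside the gene, chr3:133515231-133515417 had 15 fragments (−log10 q 6.49) and chr3:133510529-133510808 had 10 (3.09). Upstream, chr3:133557548-133558059 had 15 (9.73), and chr3:133582853-133583117 and chr3:133583291-133583504, next to the region whose summit lay 37926 bp before the start, had 10 and 14 (2.18 and 4.83). The nearest undivided peak was at least 10212 bp from any of the 9, so none of them bordered an open stretch of undivided cells. A peak of 5 to 7 fragments would have been called in the undivided library at these places. Scaled to the undivided library by shared regions, the divided pileups of the 9 were 8.29 to 19.1, and all 9 were above this limit. Scaled by background they were 6.68 to 15.4, and 8 of the 9 were above it, so the weakest were near the limit. All 9 entered through their call in divided cells, so their divided pileups were high by selection. Being above the limit is therefore no test of the missing calls, and the part of depth in them was not tested.

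A pair of neighbouring regions inside Tet2, with summits 17825 and 18626 bp downstream of the start, was open in more than 1 fraction and had the most fragments in divided cells. At chr3:133526228-133526870 the pileup was 36 fragments in divided cells, 12 in undivided cells and 14 in polyclonal cells, giving a divided over undivided ratio of 2.49 (95% interval 1.27 to 5.25) and a divided over polyclonal ratio of 2.16 (95% interval 1.14 to 4.34). Under the background scaling those ratios were 2.01 (95% interval 1.02 to 4.23) and 1.84 (95% interval 0.969 to 3.70), and the second interval included 1. At chr3:133525627-133526117 it was 17 in divided and 8 in undivided cells, with no call in polyclonal cells, where the neighbouring peak ended 167 bp away. Its divided over undivided ratio was 1.76 (95% interval 0.721 to 4.72), an interval that includes 1. Against polyclonal cells, 6 of the 15 Tet2 regions were called in divided cells only (40%, against 19.3% of all regions). In polyclonal cells only there was 1 (6.67%, against 12%), chr3:133518750-133518927 with 6 fragments. Undivided cells had 1 region that polyclonal cells lacked and lacked 5 that polyclonal cells had. These were 10% and 50% of the 10 called in either, against 11.6% and 16.8% of all regions. Of 15056 genes 154 had a net count at least as low, which genes with few regions cannot reach.

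**Figure D5:**
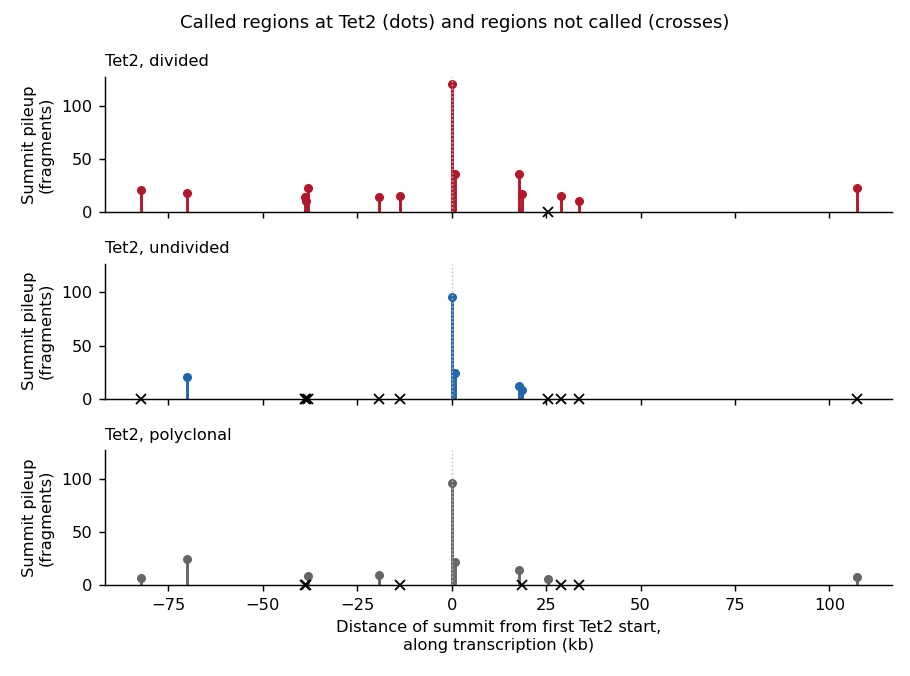
Summit pileup (fragments) of the 15 regions at Tet2 against the distance of the summit from the start along the direction of transcription (kb, upstream is negative), in the divided, undivided and polyclonal library; crosses mark regions that were not called in that library. Away from the start the divided library has 13 stems of up to 36 fragments, and the undivided library has 4.

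Beyond the 100 kb limit, chr3:133758601-133758876, at 213465 bp from Tet2, was the next region whose nearest protein-coding gene was a member, and it was called in divided cells alone with 11 fragments. The last region inside the limit, at 81290 bp, was the one with 21 fragments in divided cells. Of the 9 regions found in divided and not undivided cells, 4 lay within 20 kb of the gene and 2 inside it, so the count at Tet2 rests largely on regions whose target gene is given by distance alone.

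At Tet3, which like Tet2 had 15 regions, 10 were shared by the 3 libraries. The tallest stood at the annotated start used here, in the gene body and at chr6:83455512-83457397. That last region had 129 fragments in divided cells, 95 in undivided cells and 105 in polyclonal cells. It lay inside the RefSeq span although its summit was 14862 bp upstream of that start, so the span reaches beyond the start used. Whether another start lies there was not examined, and the region was counted as away from a start. In divided cells alone 4 regions were called and in polyclonal cells alone 1, chr6:83392546-83392713 with 8 fragments. Among those in divided cells, chr6:83410153-83410453 had 50 fragments over a local background of 13.2 (−log10 q 12.3), 1180 bp from the nearest undivided peak and within a broad open stretch where chr6:83411582-83412194 had 96 fragments in divided cells, 82 in undivided cells and 84 in polyclonal cells. The next, chr6:83370081-83370383, had 13 fragments (−log10 q 6.03), and chr6:83424027-83424211 and chr6:83375336-83375586 had 28 and 8 with −log10 q values under 5. Undivided cells were highest at chr6:83381469-83382335, which had 25 fragments in divided cells, 36 in undivided cells and 16 in polyclonal cells. The undivided over polyclonal ratio there was 2.28 (95% interval 1.23 to 4.39) and the divided over undivided ratio 0.576 (95% interval 0.331 to 0.986). Counts for divided and undivided cells were 4 against 0 of the 14 regions called in either. The first share, 28.6%, stood against 22.9% of all regions, and the second against 10.7%. Of 15056 genes 379 had a net at least as high, which only a gene with at least 4 regions can reach.

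A wider set of 50 genes that work with these enzymes was described in the same way. Of these 50, 47 had a region, and 122 of their 180 regions were called in all 3 libraries (67.8%, against 57.6% of all regions). In divided and not undivided cells 31 of 174 were called (17.8%, against 22.9% of all regions) and 13 the other way (7.47%, against 10.7%). Against polyclonal cells 30 of 172 were called in divided cells only (17.4%, against 19.3%) and 11 in polyclonal cells only (6.40%, against 12%). Between undivided and polyclonal cells 16 of 158 were called in undivided cells only (10.1%, against 11.6%) and 15 in polyclonal cells only (9.49%, against 16.8%). Mbd2, which binds methylated DNA, had 19 regions, 10 of them in all 3 libraries, with 4 in divided and not undivided cells and 4 the other way, and against polyclonal cells 4 and 3. Ctcf, an insulator protein whose binding methylation can block, had 2 of its 3 regions in divided and not undivided cells, and 7 genes of the list had 2 such regions. It also had 2 in polyclonal and not undivided cells. Cxxc5, which binds unmethylated CG, had 11 regions, with 3 in undivided and not divided cells and 2 in polyclonal and not divided cells.

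Others on that list were named by the same rule of most one-sided regions. Gadd45g, a cofactor linked to demethylation, had 8 regions, of which 3 had a peak in divided cells but none in polyclonal cells, and 2 had one in undivided cells but none in polyclonal cells. In the list 2 genes had 3 regions of the first kind. Samhd1, which hydrolyses deoxynucleotides, had 2 of its 7 in undivided and not polyclonal cells, a count that 5 genes of the list had. Parp1, which takes part in the repair of oxidised bases, had 2 of its 4 in polyclonal and not undivided cells, a count that 3 genes had. The genes of base removal, which act after the Tet enzymes, had 4 of 18 regions in divided and not undivided cells and 0 the other way (22.2%, against 22.9% of all regions).

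The genes whose regions fell into the presence classes most like those of a member were found by the city-block distance between counts in 7 classes over the 3 libraries, with ties broken by signal. For Tet2 these were Tspan5 and Abhd17c, both at a distance of 3 and with 14 regions each. For Tet3 they were Epc1 at a distance of 1 and Gata3 at 2, and for Dnmt3a they were Cotl1 at 1 and Arsb at 2. For Tet1 they were Tnpo1 and 1110032F04Rik at 0, a distance that 23 genes shared.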

How the data were processed

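Members and gene lists were chosen with earlier results of these data known. Per the submitters' processing notes the tools were MACS2 2.1.0 (peaks), Bowtie2 2.3.2, Trimmomatic 0.33, cutadapt 1.12, bcl2fastq 2.17, SAMtools and Picard, and the build was mm10, with no parameters. Whether reads were shifted for the transposase is likewise unstated. Each deposited peak list gives a score that is a cut multiple of −log10 q, the fold enrichment of the summit against local background (a linear ratio), −log10 p and −log10 q. The lowest deposited −log10 q was 1.31 for divided, 1.30 for undivided and 1.30 for polyclonal cells. The deposited summit lists repeat positions and −log10 q of every peak. The authors' fold and −log10 q are values of a peak inside its own list and served here to describe and filter peaks.

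Read totals were not used, as no source here states them. Pileup and local background at each summit were solved from the deposited fold, read as (pileup + 1)/(background + 1), together with the deposited −log10 p from a Poisson tail. Pileups came out whole within 0.001 for 99.96% (divided), 99.97% (undivided) and 99.98% (polyclonal) of peaks. All pileups rest on this model of the caller. Ratios have exact binomial and pileups exact Poisson 95% intervals, which cover counting error only. Genes were 21887 RefSeq protein-coding spans of GRCm38.p6. Regions called in 1 or 2 libraries were named where −log10 q was at least 5, besides starts, each gene's highest region and regions past 2-fold, and the remaining ones are given by counts or briefly. Of the pathway list the 2 genes with the most one-sided regions were named in each direction, ties taken by net count and then by name. Python 3.11.15, NumPy 2.4.6, pandas 2.3.3, SciPy 1.17.1 and Matplotlib 3.10.9 were used.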

Additional observations from a re-analysis of the deposited data

How the results depend on the processing

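No paired analysis was possible because each fraction has 1 library and the labels give no replicate numbers. Of 125 alternatives 105 left a share inside its exact 95% interval and on its side of 50%, a ratio inside its 95% interval, or a count within 1.5 times. These include the background scaling of the 32 named ratios, yet 8 of those changed direction, and of the 8 past 2-fold 2 fell below it. That scaling shifts all ratios of a comparison alike and was judged against counting intervals. The 105 also include limits by depth, and the local call limit scaled by shared regions, which dropped no region and left every share unchanged. The total is therefore no measure of how firm the results are. The deposited fold in place of the pileup was not run, since it belongs to each list's own peaks. Regions called in all 3 libraries numbered 32 of 55. They were 29 of 43 where −log10 q had to reach 5 and 26 of 36 at 10. They were 31 of 56 under a stricter overlap, 31 of 49 within 20 kb and 29 of 43 inside gene spans. The share was thus higher in all but the overlap setting, and no share over all regions was computed in these settings. The divided share of the members' one-sided regions was 85% against undivided and 82.35% against polyclonal cells. Over all regions it was 68.1% and 61.7%, with no threshold on −log10 q. Where −log10 q had to reach 5 or 10 the members' share was 100% in both. No share over all regions was computed at 5 or 10. The shares at those thresholds, here and below, therefore have no background value. Without Tet2 the members' share was 72.73% and 80%, and 100% at both thresholds. The counts behind these shares fell: over all members 17 against 3 regions in divided and undivided cells became 10 against 0 at 5 and 6 against 0 at 10. At Tet2 9 against 0 became 6 at 5, 3 at 10, 4 within 20 kb, 2 inside the gene and 8 by the nearest start, each against 0. At Tet2 the divided share against polyclonal cells was 85.71%, and 100% at 5, and the undivided share against polyclonal cells was 16.67%, and 0% at 5. The undivided share over all members was 33.33% against polyclonal cells (41.0% over all regions), 0% at 5, and reversed to 60% inside gene spans. Without Tet2 it was 66.67%, and reversed to 40% by the nearest start; the cause was not tested. For the pathway list the divided share was 70.45% against undivided cells, 87.5% at 10, and 73.17% against polyclonal cells, 89.47% at 5 and 100% at 10, where the undivided share of 51.61% became 100% from 1 region. Regions past 2-fold between divided and undivided cells numbered 1, but 4 by the background scaling (1 higher and 3 lower) and 6 at 1.5-fold, and between divided and polyclonal cells 5, but 3 by the background scaling. The local call limit was added after seeing the data and left 16 or 17 against 3 regions in divided and undivided cells, though regions entered through the library where they were called. Depth limits small regions: none under 5 fragments was called.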
